A study of Mus musculus with 2 samples.

Results

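Chemokines are small secreted proteins that attract cells along a gradient and act through receptors coupled to G proteins. Interleukins act through single-pass receptors, which signal mainly through JAK kinases and STAT factors, or, for the interleukin 1 and interleukin 17 families, through adaptors that lead to NF-kB. Fibroblasts are a known source of Cxcl12 and of monocyte and neutrophil attractants, while most chemokine receptors belong to leukocytes. The genes described here are the entries of the deposited expression table whose symbol follows the naming of CC, CXC or CX3C chemokines, of CC or CXC chemokine receptors, or of interleukins and genes named for their receptors, and which had an RPKM above 0 in one library or the other. RPKM values are read numbers corrected for transcript length and library size, so levels of different genes can be set side by side. The patterns fitted 133 entries, of which 78 (76 symbols) were above 0 and 55 were listed at 0 in both libraries, out of 15976 entries with a symbol and a value above 0. The members were thus chosen by their symbols and selected on an RPKM above 0, which is no result. The lowest member by its higher value was Il21, at 0.00707 RPKM in Dnmt1-/- MEFs, next to the entries listed at 0. The names also take in Il1rn, which encodes a secreted antagonist and not a receptor.

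The data are strand-specific mRNA-seq of mouse embryonic fibroblasts (MEFs), read as 50 bp single-end reads, with 1 Dnmt1+/+ and 1 Dnmt1-/- library. Dnmt1 encodes the methyltransferase that maintains DNA methylation, and the cells called Dnmt1-/- are homozygous for a hypomorphic allele. The paper reports that these cells hold little DNA methylation. The comparison is of 1 line with another, so genotype cannot be told apart from other differences between the lines. For Hox genes, the paper notes that a contribution of a different anatomic origin of the cells cannot be formally excluded. Both lines also lack p53, were kept under standard culture conditions without a treatment, and are of a strain given as unknown. Whether each line is 1 clone is not stated in the sources used here. The targeted gene, Dnmt1, had 65.2 RPKM in the Dnmt1+/+ library and 14.5 RPKM in the Dnmt1-/- library (log2 change of -2.16). Changes are differences of log2(RPKM + 0.1), Dnmt1-/- minus Dnmt1+/+, a scale that understates changes of low genes. With 1 library per genotype there is no replicate error and no test, so "higher" and "lower" describe these 2 libraries. The table gives no read counts, so the depth behind each value is unknown.

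The MEF label was checked against markers. All 8 fibroblast markers were kept, which here means a status of OK in the authors' table, a symbol and at least 1 RPKM in one library or the other. Summed over the list they had 5999 RPKM in Dnmt1+/+ and 3714 RPKM in Dnmt1-/- MEFs, with Vim at 2269 and 1873 and Col1a1 at 1448 and 897.7. Pdgfra differed by more than 2-fold upwards, at 6.95 and 18.7 RPKM, and Col1a2, Fn1 and Thy1 by more than 2-fold downwards, with Thy1 at 4.84 and 0.129 RPKM. Of 10 leukocyte markers 3 were kept and all 3 were higher in Dnmt1-/- MEFs, and the summed RPKM of the list was 2.20 and 13.0. Csf1r was at 0.0702 and 6.08 RPKM, Cd68 at 0.596 and 3.63, and Cd14 at 1.51 and 3.23. The pan-leukocyte genes Ptprc and Laptm5, the macrophage gene Emr1 and the T cell gene Cd3e were listed at 0 in both libraries. None of 5 endothelial and 5 epithelial markers was kept, with highest values of 0.558 and 0.441 RPKM. The part of these differences in the results that follow was not tested. In a bulk library, fewer cells of a type and less RNA per cell cannot be told apart.

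Most of the genes were at low levels, and a few chemokines and receptors were among the abundant transcripts of these cells. Of the 78 entries, 26 reached 1 RPKM in Dnmt1+/+ and 32 in Dnmt1-/- MEFs, 5 in the former alone and 11 in the latter alone. Levels of 10 RPKM or more were seen for 6 and 7 entries. The 5 highest were Cxcl12, Ccl7, Il1rl1, Ccl2 and Il11ra1. An RPKM of 0 in Dnmt1+/+ with a value above 0 in Dnmt1-/- was listed for 15 of the 78 entries, 19.2%, against 7.14% of all entries with a symbol and a value above 0. The opposite was listed for 5 entries, 6.41%, against 4.74%. The other 58 were above 0 in both.

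**Figure D1:**
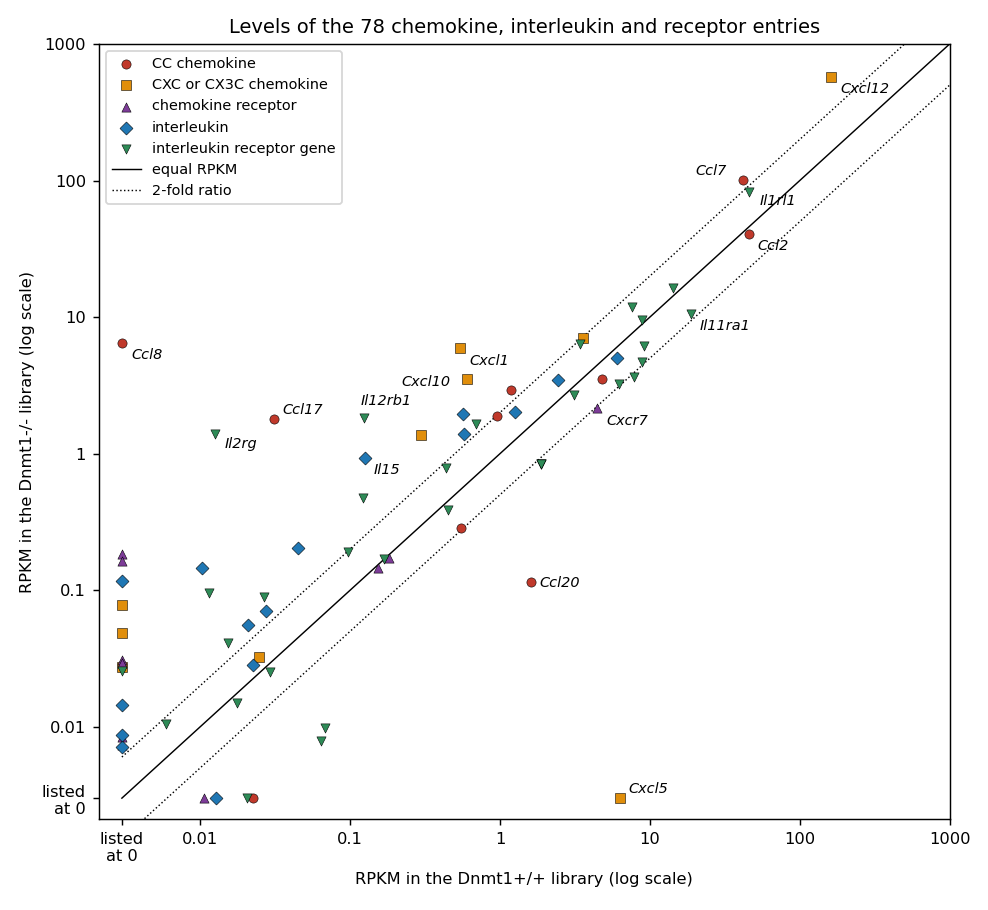
RPKM in the Dnmt1-/- library (vertical, log scale) against RPKM in the Dnmt1+/+ library (horizontal, log scale) for the 78 entries, with 1 point per entry, a shape and colour per class, and values of 0 set on the margins. Cxcl12 lies highest in both libraries, and Ccl8 and Cxcl5 lie on opposite margins.

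Of the 37 member entries kept, 13 (35.1%) exceeded 2-fold upwards in Dnmt1-/- MEFs, against a background of 8.47% of the 11244 genes kept, and 7 (18.9%) were more than 2-fold lower, against 10.9%. The other 17 lay within 2-fold. An entry that reached 1 RPKM in a single library was kept through that library, 11 through Dnmt1-/- and 5 through Dnmt1+/+ alone. Ccl8, Ccl17, Cxcl1, Cxcl10, Cxcl16, Il7, Il33, Il2rg, Il12rb1 and Il15ra of the higher entries were among the 11. Cxcl5, Ccl20 and the Il11ra2 entries were the 5. The shares, class counts and medians here thus carry no test. With a mean RPKM of at least 1, 8 of 31 entries were higher, against 7.43%, and 6 were lower, against 9.89%. The median log2 change was then 0.20. The median log2 change of the 37 entries was 0.64, with quartiles of -0.82 and 1.28, and that of all genes kept was -0.14, with quartiles of -0.56 and 0.27. Centred on the median of all genes kept, 16 entries were past 2-fold upwards, against 9.71% of all genes kept, and 2 downwards, against 8.58%. By class, 4 of 8 CC chemokines kept were higher and 1 was lower, 4 of 6 CXC or CX3C chemokines were higher and 1 was lower, 2 of 5 interleukins were higher, and 3 of 17 interleukin receptor entries were higher and 4 lower, 3 of them the near-identical copies of Il11ra2. With Il11ra2 counted once, 5 of 35 entries in all were lower. The median log2 change was 1.09 for the CC chemokines, 1.85 for the CXC or CX3C chemokines, 0.64 for the interleukins and -0.19 for the interleukin receptor entries. All chemokine ligands summed to 270.0 RPKM in Dnmt1+/+ and 749 RPKM in Dnmt1-/- MEFs, of which Cxcl12 made up 60.1% and 76.4%.

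**Figure D2:**
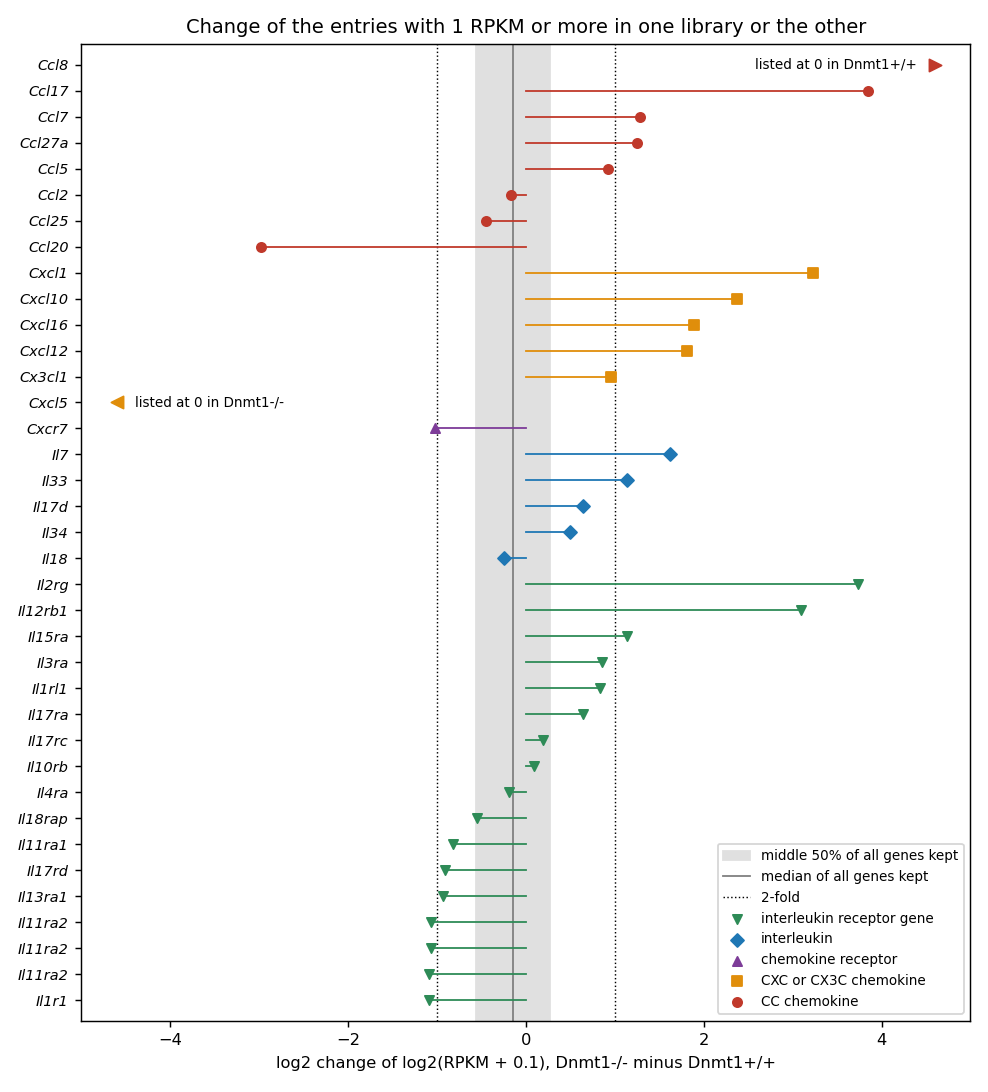
Change of log2(RPKM + 0.1), Dnmt1-/- minus Dnmt1+/+ (horizontal), for the 37 entries kept, with 1 line per entry and a colour per class. The grey band holds the middle 50% of all genes kept, dotted lines mark 2-fold, and arrows mark Ccl8 and Cxcl5, which are listed at 0 in one library. The 13 entries that are higher include 8 chemokine ligands.

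The windows at the start of 7 genes are shown, a choice among those more than 2-fold different between the libraries. Il33, Il15ra, Ccl27a, Il1r1 and Il11ra2 were also past 2-fold and had a window, but theirs are not shown. DNA methylation in mammalian cells falls mainly on CpG dinucleotides, which are in capitals. The 7 windows span 250 bases before to 50 bases after the gene start in the RefSeq table of GRCm38.p6. Each had 1 exact match on its own chromosome in NCBIM37 (mm9), the build of the deposited table, and other chromosomes were not searched. They lie at chr11:81928437-81928736 (Ccl8, plus strand), chr8:97334103-97334402 (Ccl17, plus), chrX:98463545-98463844 (Il2rg, minus), chr5:91320021-91320320 (Cxcl1, plus), chr5:92777866-92778165 (Cxcl10, minus), chr6:117118303-117118602 (Cxcl12, plus) and chr1:83113091-83113390 (Ccl20, plus).
Ccl8: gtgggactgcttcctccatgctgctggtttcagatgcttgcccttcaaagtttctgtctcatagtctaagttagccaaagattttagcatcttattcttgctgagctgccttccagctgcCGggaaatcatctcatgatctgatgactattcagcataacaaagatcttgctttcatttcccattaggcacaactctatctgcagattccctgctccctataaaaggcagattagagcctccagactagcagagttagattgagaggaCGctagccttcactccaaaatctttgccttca
Ccl17: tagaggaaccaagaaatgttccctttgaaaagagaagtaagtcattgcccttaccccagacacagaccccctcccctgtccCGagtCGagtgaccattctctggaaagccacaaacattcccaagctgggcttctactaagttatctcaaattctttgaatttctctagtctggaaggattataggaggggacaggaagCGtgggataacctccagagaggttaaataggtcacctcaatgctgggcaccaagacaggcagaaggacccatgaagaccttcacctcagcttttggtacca
Il2rg: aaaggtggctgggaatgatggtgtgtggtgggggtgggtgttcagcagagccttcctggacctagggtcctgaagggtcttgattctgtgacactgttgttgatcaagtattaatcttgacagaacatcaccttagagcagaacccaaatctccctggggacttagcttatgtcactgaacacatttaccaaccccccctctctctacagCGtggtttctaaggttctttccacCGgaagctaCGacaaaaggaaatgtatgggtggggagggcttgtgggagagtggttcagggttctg
Cxcl1: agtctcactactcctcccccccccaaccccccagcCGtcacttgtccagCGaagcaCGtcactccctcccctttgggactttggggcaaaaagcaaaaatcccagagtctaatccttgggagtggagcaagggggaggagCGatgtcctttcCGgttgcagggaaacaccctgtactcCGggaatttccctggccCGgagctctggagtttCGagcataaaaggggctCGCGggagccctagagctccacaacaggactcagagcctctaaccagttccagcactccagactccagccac
Cxcl10: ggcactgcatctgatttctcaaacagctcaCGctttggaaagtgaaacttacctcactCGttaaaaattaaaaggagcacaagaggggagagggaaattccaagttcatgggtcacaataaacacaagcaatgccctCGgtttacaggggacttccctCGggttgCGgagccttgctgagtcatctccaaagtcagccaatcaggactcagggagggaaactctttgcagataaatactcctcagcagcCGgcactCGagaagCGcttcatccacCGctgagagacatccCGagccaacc
Cxcl12: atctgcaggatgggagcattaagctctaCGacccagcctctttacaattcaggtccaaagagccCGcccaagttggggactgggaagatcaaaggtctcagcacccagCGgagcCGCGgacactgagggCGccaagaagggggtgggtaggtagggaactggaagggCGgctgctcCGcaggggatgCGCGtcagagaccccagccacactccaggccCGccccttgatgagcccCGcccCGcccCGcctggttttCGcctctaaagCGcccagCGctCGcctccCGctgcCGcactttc
Ccl20: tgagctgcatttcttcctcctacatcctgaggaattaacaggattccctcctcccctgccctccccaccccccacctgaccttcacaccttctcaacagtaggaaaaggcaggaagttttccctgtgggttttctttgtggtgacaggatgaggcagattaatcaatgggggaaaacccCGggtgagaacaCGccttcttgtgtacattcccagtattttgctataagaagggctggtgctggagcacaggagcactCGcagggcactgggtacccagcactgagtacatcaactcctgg

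These windows differed widely in CpG count. Ccl8 held 2 CpG, and Ccl17, Il2rg and Ccl20 held 3 each, while Cxcl1 and Cxcl10 held 10 and Cxcl12 held 20. Over all 32851 RefSeq windows the median was 7 CpG, with quartiles of 3 and 20. A window was found for 55 of the 76 symbols and for 24 of those kept. The median was 6 CpG over the 55 members and 10 over the 24 kept, where the most CpG-rich window of a member was taken. Among the kept genes with a window, the 9 that were higher in Dnmt1-/- MEFs had a median of 10 CpG (2 to 20), the 3 that were lower had 4 (3 to 14) and the 12 within 2-fold had 19 (1 to 52). The ranges of these 3 sets overlap. No methylation values were analysed here. Ccl7, Cxcl16, Il12rb1 and Il7 had no window in the table.

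**Figure D3:**
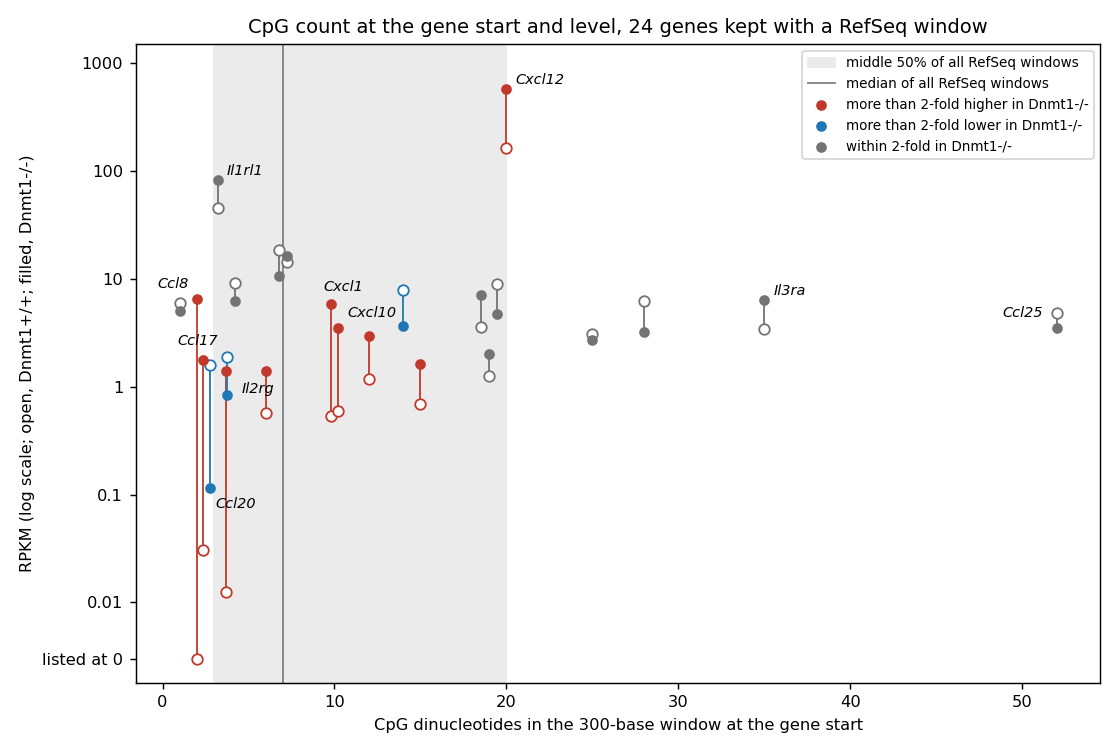
RPKM in Dnmt1+/+ (open) and Dnmt1-/- (filled) MEFs on a log scale against the number of CpG dinucleotides in the 300-base window at the gene start, for the 24 genes kept with a window, with a line joining the values of a gene and points of equal count set side by side. Grey shading marks the middle 50% of all RefSeq windows. Genes that are higher lie between 2 and 20 CpG.

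The windows were also searched on both strands for 3 motifs, and overlapping matches were allowed. A match describes letters and not a bound site. Each member counts once, by its most CpG-rich window, while every RefSeq window counts in the share of all windows, so the shares are not like for like. The NF-kB consensus was present in 10 of the 55 member windows (18.2%) and in 8.46% of all windows. It began 71 bases before the start of Cxcl1, 159 bases before that of Cxcl10, with overlapping matches 104 and 103 bases before it, and, on the opposite strand, 80 bases before that of Ccl20. The interferon-stimulated response element TTTCNNTTTC was present in 2 member windows (3.64%) and 3.44% of all, and in Cxcl10 it lay 213 bases before the start on the opposite strand. The TATA box TATAAA was present in 12 member windows (21.8%) and 13.6% of all, and in Ccl8 it lay 32 bases before the start.

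CC chemokines, which attract mainly monocytes and lymphocytes, were led by Ccl2 and Ccl7. These monocyte attractants are neighbours on chromosome 11 and signal through Ccr2. Ccl2 (chr11:81849073-81850955 in NCBIM37) was at 45.6 RPKM in Dnmt1+/+ and 40.6 in Dnmt1-/- MEFs (log2 change -0.17). Its locus overlaps the predicted gene Gm17268 on the opposite strand, and strand use in counting is not given, so its value is uncertain. Ccl7 (chr11:81859214-81861027) was at 41.5 and 101 RPKM, a log2 change of 1.28. The pair thus stood at similar levels in Dnmt1+/+ MEFs, and Ccl7 lay above Ccl2 in Dnmt1-/- MEFs. Ccl8 (chr11:81928687-81930301), a further chemokine of the same cluster, was listed at 0 in Dnmt1+/+ and was at 6.51 RPKM in Dnmt1-/- MEFs. The other genes of this cluster of 6 entries over 144 kb were low, with Ccl11 at 0.0224 RPKM and 0 and with Ccl12 and Ccl1 listed at 0 in both. Within this cluster Ccl7 and Ccl8 were more than 2-fold higher, while the change of Ccl2 was close to the median of all genes.

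Ccl17 (chr8:97334353-97335935), which attracts T cells through Ccr4, was at 0.0309 RPKM in Dnmt1+/+ and 1.78 in Dnmt1-/- MEFs (log2 change 3.84). Ccl27a, a skin chemokine, was at 1.18 and 2.94 RPKM, a log2 change of 1.25. Its entry shares a locus with Il11ra1 on the opposite strand, and whether strand was used in counting is not given in the sources used here, so both values are uncertain. Ccl5, an attractant of T cells and monocytes, was just inside the 2-fold line, at 0.948 and 1.88 RPKM (0.92). Ccl25, known from thymus and gut, was at 4.80 and 3.49 RPKM (-0.45), at a locus shared with Elavl1, so its value is also uncertain.
Ccl20 (chr1:83113341-83115742), the ligand of Ccr6, went the other way, at 1.60 RPKM in Dnmt1+/+ and 0.115 in Dnmt1-/- MEFs (log2 change -2.98). It was the one CC chemokine kept that was more than 2-fold lower.

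Among CXC chemokines, Cxcl12 stood far above the rest. Cxcl12 (chr6:117118553-117131385), which retains haematopoietic and other cells in tissues through Cxcr4, was at 162 RPKM in Dnmt1+/+ and 572 in Dnmt1-/- MEFs (log2 change 1.82). By RPKM it ranked 333 of 11244 genes kept in Dnmt1+/+ and 61 in Dnmt1-/- MEFs. Of its receptors, Cxcr7, which also takes up and clears Cxcl12, was at 4.47 and 2.15 RPKM, a log2 change of -1.02. Cxcr4 was at 0.0107 RPKM and 0. The ligand was thus higher and the one receptor above 1 RPKM was lower in Dnmt1-/- MEFs.

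Cxcl1 and Cxcl5, neutrophil attractants that share the receptor Cxcr2, differed in opposite directions, and both lie in 1 cluster on chromosome 5. Cxcl1 (chr5:91320267-91322141) was at 0.540 RPKM in Dnmt1+/+ and 5.89 in Dnmt1-/- MEFs (log2 change 3.23). Cxcl5 (chr5:91188325-91190651) was at 6.29 RPKM in Dnmt1+/+ and was listed at 0 in Dnmt1-/- MEFs. Between them lies Ppbp, which encodes a platelet chemokine and is no member by its name, at 0.496 and 6.23 RPKM, a log2 change of 3.41. Pf4, Cxcl3 and Cxcl2 of the same cluster were listed at 0 in both libraries, and Cxcl15 was at 0.0246 and 0.0322 RPKM. The cluster of 7 entries over 147 kb thus held 1 gene that was lower and 2 that were higher.

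**Figure D4:**
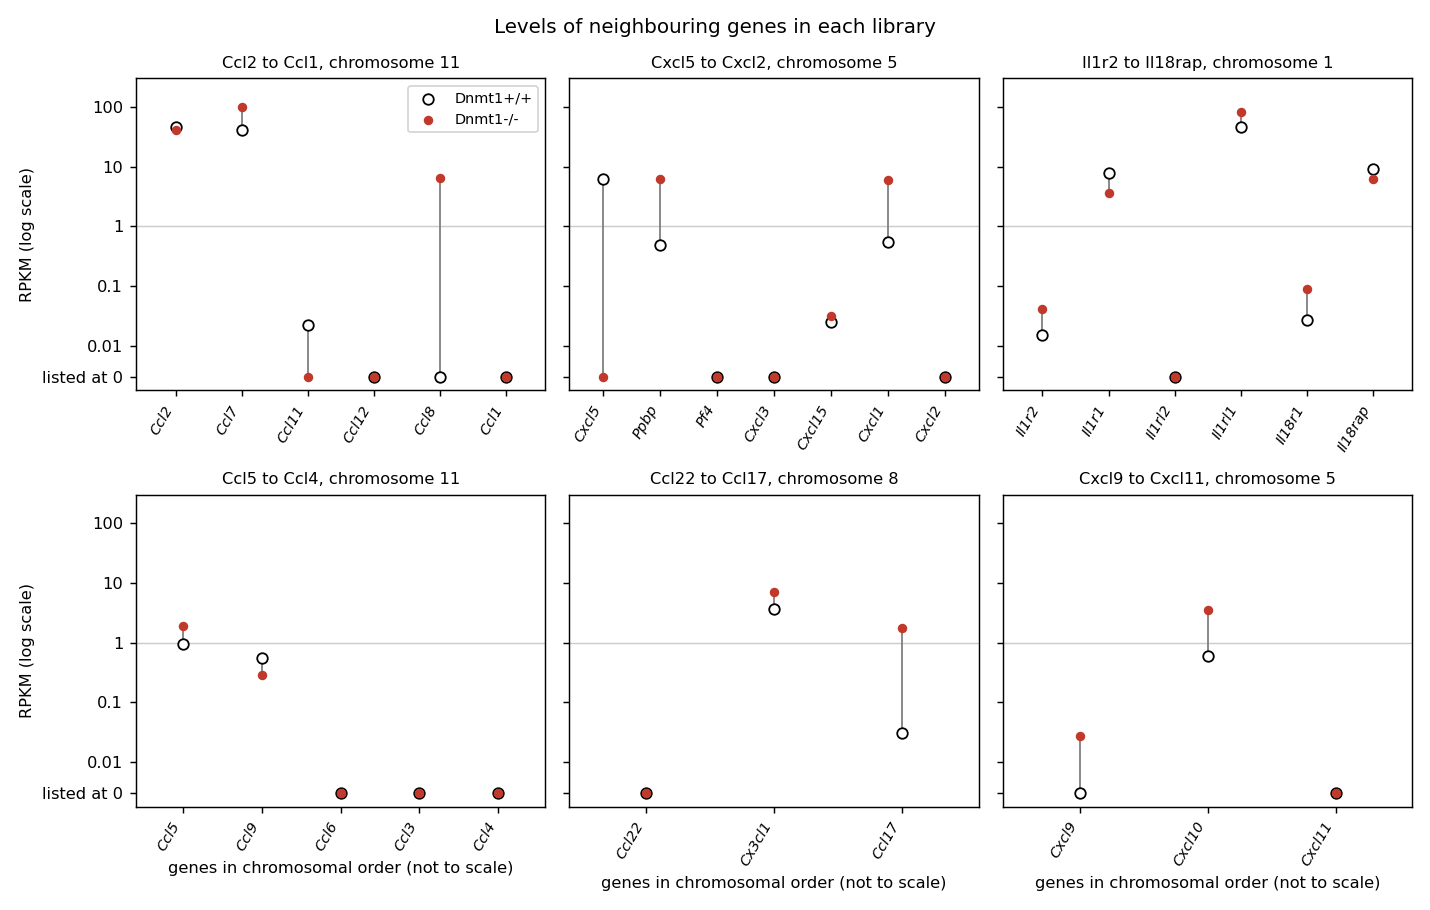
RPKM on a log scale in Dnmt1+/+ (open) and Dnmt1-/- (red) MEFs for genes of 6 clusters, in chromosomal order and not to scale along it. Within a cluster, neighbours differ in level, Cxcl5 and Cxcl1 have their higher value in opposite libraries, and in the Ccl5 to Ccl4 cluster Ccl5 alone reaches 1 RPKM.

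The remaining ligands of this class were at a few RPKM. Cxcl10 (chr5:92775664-92777915), an interferon-induced attractant of T cells, was at 0.600 RPKM in Dnmt1+/+ and 3.52 in Dnmt1-/- MEFs (log2 change 2.37). Its neighbours Cxcl9 and Cxcl11, which share the receptor Cxcr3, were at 0 and 0.0272 RPKM (Cxcl9) and listed at 0 in both (Cxcl11). The locus of Cxcl10 overlaps those of Cxcl11 and Art3, and its value is uncertain for the reason given for Ccl27a. Cxcl16, a ligand made as a membrane protein, was at 0.295 and 1.36 RPKM (1.89), at a locus shared with Zmynd15, so its value is also uncertain. Cx3cl1, likewise membrane-bound, was just inside the 2-fold line at 3.59 and 7.06 RPKM (0.96), and lies beside Ccl17 on chromosome 8.

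The receptors for these ligands were low. Of 16 chemokine receptor entries 10 were above 0, and Cxcr7 was the one that reached 1 RPKM. Ccr2, the receptor for Ccl2 and Ccl7, was listed at 0 in Dnmt1+/+ and was at 0.183 RPKM in Dnmt1-/- MEFs, and Ccr4, the receptor for Ccl17, at 0 and 0.164 RPKM. Cxcr6, the receptor for Cxcl16, was at 0.183 and 0.1725 RPKM, and Ccr10, the receptor for Ccl27a, at 0.154 and 0.144 RPKM. The loci of Cxcr6 and Ccr10 are shared with Fyco1 and Cntnap1, so these values are uncertain for the reason given for Ccl27a. Cxcr2, Cxcr3 and Ccr6, the receptors for Cxcl1 and Cxcl5, Cxcl10 and Ccl20, were listed at 0 in both libraries. Ligands at 1 RPKM or more in either library thus stood beside receptors under 1 RPKM in each of these pairs, with Cxcl12 and Cxcr7 as the exception.

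Interleukins themselves were at low levels, with 16 of 35 entries above 0 and 5 kept. Il7, a growth factor for lymphocyte precursors, was at 0.569 RPKM in Dnmt1+/+ and 1.96 in Dnmt1-/- MEFs (log2 change 1.62). Il33, a nuclear cytokine released by damaged cells, was at 0.574 and 1.38 RPKM (1.14). Il18, a cytokine of the interleukin 1 family, was the highest at 6.01 and 5.05 RPKM (-0.25), followed by Il34, a ligand of Csf1r, at 2.45 and 3.49 RPKM (0.49), and Il17d, at 1.26 and 2.02 RPKM (0.64). The inflammatory cytokines Il1a and Il6 were under 0.1 RPKM in both libraries, and Il1b was listed at 0 in both.

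Of the 41 members not kept, each was under 1 RPKM in both libraries. The highest was Il15, which supports natural killer and memory T cells, at 0.125 RPKM in Dnmt1+/+ and 0.936 in Dnmt1-/- MEFs (log2 change 2.20). Il1rn was at 0.121 and 0.472 RPKM (1.37), and Il11 was at 0.0103 and 0.145 RPKM (1.15).

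Of the interleukin receptor entries, Il2rg, Il12rb1 and Il15ra were more than 2-fold higher. Il2rg (chrX:98459717-98463594), the common gamma chain of the receptors for interleukins such as Il2, Il7 and Il15, was at 0.0126 RPKM in Dnmt1+/+ and 1.39 in Dnmt1-/- MEFs (log2 change 3.73). Its locus overlaps the predicted gene Gm20489 on the same strand, so its value is uncertain. Il12rb1 (chr8:73332348-73345323), a chain of the receptors for Il12 and Il23, was at 0.125 and 1.82 RPKM, a log2 change of 3.10. Il15ra, which binds and presents Il15, was at 0.692 and 1.64 RPKM (1.13).
Values of some partner chains stand beside these. Il2rb, which completes the Il15 receptor, was at 0.00590 and 0.0105 RPKM, and Il7r, the specific chain for Il7, was listed at 0 in both libraries. Il12rb2, the partner of Il12rb1 for Il12, was at 0.167 and 0.170 RPKM, and Il23r, its partner for Il23, at 0.0206 RPKM and 0.

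On chromosome 1, 6 receptor genes of the interleukin 1 family span 475 kb, from Il1r2 to Il18rap, and their levels differed widely. Il1rl1 (chr1:40486415-40522260), the Il33 receptor, was at 45.8 RPKM in Dnmt1+/+ and 81.8 in Dnmt1-/- MEFs (log2 change 0.84), just inside the 2-fold line. It ranked 1652 and 849 of the 11244 genes kept. Il1r1 (chr1:40281925-40373043), the signalling receptor for Il1, was at 7.88 and 3.64 RPKM, a log2 change of -1.09. Il18rap, an accessory chain for Il18, was at 9.10 and 6.18 RPKM (-0.55), while Il18r1, the chain that binds Il18, was at 0.0267 and 0.0893 RPKM. Il1rl2 was listed at 0 in both and Il1r2, a decoy receptor, was under 0.1 RPKM in both. Il1rap, the accessory chain that Il1r1 and Il1rl1 share, was listed at 0 with a status of FAIL, so its level was not measured here.

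The remaining receptor chains include the Il11 receptors and those for Il3, Il4, Il10, Il13 and Il17. Il11ra1, the Il11 receptor, was at 18.7 RPKM in Dnmt1+/+ and 10.5 in Dnmt1-/- MEFs (-0.82), at the locus it shares with Ccl27a. Its near-identical copies named Il11ra2 are 3 entries on chromosome 4, at 1.88 to 1.89 RPKM in Dnmt1+/+ and 0.834 to 0.844 in Dnmt1-/- MEFs, with log2 changes of -1.09 to -1.07. Reads could be split between these copies, so the 3 values are uncertain and are not independent. Their signalling partner Il6st, known as gp130, was at 39.7 and 35.5 RPKM (-0.16).
Il13ra1, which pairs with Il4ra, was at 6.20 and 3.21 RPKM (-0.93), and Il4ra was at 3.10 and 2.71 RPKM (-0.19). Il17rd, which dampens receptor tyrosine kinase signalling, was at 8.91 and 4.70 RPKM (-0.91). Il17ra and Il17rc, the chains of the Il17 receptor, were at 7.61 and 11.9 RPKM (0.64) and at 14.3 and 16.4 RPKM (0.20). Il3ra, the specific chain for Il3, was at 3.44 and 6.32 RPKM (0.86). Il10rb, shared by the Il10 family, was at 8.92 and 9.50 RPKM (0.09). Its locus overlaps Ifnar2 on the same strand, so the value of Il10rb is uncertain.

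Other genes of the same pathways were described from 4 lists of 108 genes, of which 101 had an entry and 72 were kept. Past 2-fold, 9 were higher in the Dnmt1-/- library (background 8.47%) and 4 were lower (10.9%), with a median log2 change of -0.01. Among haematopoietic and gp130 cytokines and receptors, Csf1r, the receptor for Il34 and Csf1, had a log2 change of 5.18 with the values given above, and its ligand Csf1 was at 126 and 263 RPKM (1.06). Kitl, the ligand of Kit, was at 2.28 and 6.32 RPKM (1.43), and Crlf2, a chain of the Tslp receptor, at 3.20 and 7.47 RPKM (1.20). Lifr, the Lif receptor, was lower at 12.2 and 3.74 RPKM (-1.68), as was the gp130 cytokine Ctf1 at 2.27 and 1.05 RPKM (-1.04).

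The lists of JAK-STAT and NF-kB pathway genes differed less. Of 23 JAK, STAT, SOCS and related genes kept, Pias3, an inhibitor of STAT factors, was lower at 5.60 RPKM in Dnmt1+/+ and 2.41 in Dnmt1-/- MEFs (-1.18). The median log2 change of this list was -0.02. Of 25 genes kept in the list of the Il1 receptor adaptor Myd88, NF-kB and related genes, 2 were higher. Sigirr, which inhibits Il1 receptor family signalling, was at 0.0261 and 3.32 RPKM (4.76), and the receptor-associated kinase Irak2 at 6.61 and 13.8 RPKM (1.05). Of 9 relatives of the chemokines kept, Ppbp was higher and a joint entry of Cd74 and Mir5107 was lower, at 9.92 and 0.908 RPKM (-3.31). Cd74 encodes the MHC class II invariant chain, which is also a receptor for Mif.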

How the data were processed

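Strand-specific mRNA-seq libraries from Dnmt1+/+ and Dnmt1-/- MEFs were analysed, 1 per genotype, so no difference has a replicate check. The authors deposited RPKM values and a status per entry. Per the submitters' processing notes, TopHat, Cufflinks, Cuffdiff and mm9 were used. Versions, strand use in counting and any scaling between libraries are not given in the sources used here. Columns named for wild-type and knock-out were taken as Dnmt1+/+ and Dnmt1-/-.

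log2(RPKM + 0.1) was taken, and entries were kept that had a symbol, status OK and 1 RPKM or more in either library. More than 2-fold different is a call by size. The members and gene lists were chosen with earlier results of these data known. Genes named by rule were all kept entries past 2-fold or within 0.3 log2 inside it, the 5 highest, the 5 largest changes among those not kept, and pathway genes past 2-fold. Some genes under this rule are not reported here. Receptor partners, cluster neighbours and other members were named after their values were seen. Genes within 200 kb were joined into clusters of 3 or more entries. Gene coordinates are from GENCODE (NCBIM37), 1-based. RefSeq windows were matched by symbol, and of several windows of a member the one with the most CpG was used. On simulated data, the fold calls were tested only with changes larger than 2-fold in genes well above the filter, so low genes were not covered. Python 3.11.15, numpy 2.4.6, pandas 2.3.3 and matplotlib 3.10.9 were used. Alternatives were pseudocounts of 1 and 0.01, other filters, a 1.5-fold threshold, centring on the median change and, added after seeing the data, Il11ra2 counted once.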

Additional observations from a re-analysis of the deposited data

How the results depend on the processing

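With 1 library per genotype, leaving out a replicate was not possible and the spread between cultures is unknown. No paired analysis was possible because there is 1 library per genotype. RPKM values carry no counts, so what depth can detect is unknown. The 13 higher and 7 lower entries became 8 and 2 with a pseudocount of 1 (6.96% and 7.12% of all genes), under which 10 of the 35 kept entries above 0 in both libraries were no longer past it. With no filter on low values 20 of 56 entries of status OK were higher (10.3% of all genes), and with a mean RPKM of at least 1 there were 8 of 31 (7.43%). After the median change was subtracted, 2 were lower (Cxcr7, Il1r1 and the 3 Il11ra2 entries were no longer past 2-fold, and Ccl5, Cx3cl1 and Il3ra were newly past it). The median log2 change of 0.64 was 0.42 and 0.65 with pseudocounts of 1 and 0.01, 0.61 without a filter, 0.20 with the filter on the mean, 0.78 after subtraction and 0.64 with Il11ra2 counted once. Of the other pathway genes, 2 were lower with a pseudocount of 1. No entry of the 35 changed sign with either pseudocount or after subtraction. The order of the largest changes depends on the pseudocount: Ccl17, Il2rg and Cxcl1 had 5.45, 5.96 and 3.42 with 0.01, and 1.43, 1.24 and 2.16 with 1. The cause of these shifts was not tested, beyond the smaller changes that a larger pseudocount gives by its construction.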
